A study of Mus musculus with 3 samples.

Results

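The immunoglobulin genes were followed in liver tissue profiled by Drop-seq, a droplet method that tags the transcripts of single cells with a barcode. They were taken by symbol, as every gene named as an immunoglobulin heavy chain (Igh), kappa (Igk) or lambda (Igl) constant or variable segment, together with Igj, the older symbol of the joining chain Jchain. This gave 167 of the 19091 genes in the tables, with 128 listed in the control library, 144 on day 1 after injury and 52 on day 7. One of the 167, Ighmbp2, encodes a helicase and not an antibody chain, so it was counted apart, and the other 166 are the members described here. They comprise 6 heavy constant genes, 2 light constant genes, Igj, 79 heavy, 75 kappa and 3 lambda variable segments. Ighd, Ighe, Iglc1 and Iglc3 were not analysed here.

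All libraries came from adult C57BL/6 mice, named C57BL/6J in the methods of the study, and each pooled tissue of 3 livers that had been taken with a 4 mm punch, digested with enzymes and cleared of red cells. The control group is labelled as sham surgery with sacrifice after 1 day, whereas the methods of the study describe it as the uninjured area of control livers. The IRE groups received irreversible electroporation, in which electric pulses kill the cells of a confined area, with 8 pulses of 50 ms spaced by 1 s, and were taken 1 day or 7 days post-injury (p.i.), called day 1 and day 7 here. The labels give 75 V for the pulses and the methods a lower voltage. With 1 pooled library per group there was no test between groups. Each interval is a 95% interval of counting error alone, exact Poisson for a level, exact binomial (Clopper-Pearson) for a share and conditional binomial for a ratio, and says nothing of the spread between mice. For transcript counts it takes each transcript as an independent draw. The error from sampling few cells that are rich in a transcript is therefore left out.

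Antibodies consist of paired heavy and light chains, and the constant gene of the heavy chain sets the class. Ighm encodes the heavy chain of IgM, with which every B cell begins, Igha that of IgA, the antibody of mucosal surfaces, and the Ighg genes those of the IgG subclasses. Naive B cells place IgM on their surface, whereas plasma cells turn most of their protein synthesis to secreted antibody and add the joining chain to polymeric IgM and IgA. Because each B cell clone keeps a single rearranged pair of variable segments, a segment name can mark the cells of a clone, although unrelated clones can use the same segment.

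Members were measured as unique molecular identifiers (UMIs), which each tag 1 captured transcript and were counted per gene. A transcript read in both its variable segment and its constant gene may therefore be counted under both, which was not tested. Counts were taken over barcodes with at least 200 detected genes, called cells here. These were 10386 control cells with 8013800 UMIs, 9253 cells with 6107866 UMIs on day 1 and 5624 cells with 3058967 UMIs on day 7, and the median depth was 456.5 to 595 UMIs per cell. Mitochondrial genes took 20.5% of the UMIs in control, 21.7% on day 1 and 4.10% on day 7, and hepatocyte markers took 0.193, 3.37 and 0.0442%. The libraries shared between 44 and 149 cell barcodes by pair, and no shared barcode held more than 1.43% immunoglobulin UMIs.

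Of the variable segments, 3 that were found in more than 1 barcode rich in immunoglobulin are shown here, and the last 300 bases of their coding sequences are printed 5′ to 3′ as the germline gene has them. The sequences are those of the GENCODE M21 annotation of the mouse assembly GRCm38, matched by symbol, which held 155 of the 157 variable segments. Igkv6-32 is the kappa segment of a set of control barcodes, Ighv14-3 the heavy segment found with it, and Igkv8-27 a kappa segment of the library on day 1. Capitals mark the bases that differ from, or have no partner in, the closest other segment of the same locus.
Igkv6-32: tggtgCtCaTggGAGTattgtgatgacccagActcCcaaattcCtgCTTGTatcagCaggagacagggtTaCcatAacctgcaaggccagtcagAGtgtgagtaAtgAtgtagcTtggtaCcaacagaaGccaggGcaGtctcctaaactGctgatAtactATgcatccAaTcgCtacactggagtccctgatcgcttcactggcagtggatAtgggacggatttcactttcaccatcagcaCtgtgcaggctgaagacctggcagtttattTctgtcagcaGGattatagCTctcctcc
Ighv14-3: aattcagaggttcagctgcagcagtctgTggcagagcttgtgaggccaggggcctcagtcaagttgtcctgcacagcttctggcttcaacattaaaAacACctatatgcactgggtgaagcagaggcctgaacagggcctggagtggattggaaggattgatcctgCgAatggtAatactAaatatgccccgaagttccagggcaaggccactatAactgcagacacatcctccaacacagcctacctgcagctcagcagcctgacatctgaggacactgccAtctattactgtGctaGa
Igkv8-27: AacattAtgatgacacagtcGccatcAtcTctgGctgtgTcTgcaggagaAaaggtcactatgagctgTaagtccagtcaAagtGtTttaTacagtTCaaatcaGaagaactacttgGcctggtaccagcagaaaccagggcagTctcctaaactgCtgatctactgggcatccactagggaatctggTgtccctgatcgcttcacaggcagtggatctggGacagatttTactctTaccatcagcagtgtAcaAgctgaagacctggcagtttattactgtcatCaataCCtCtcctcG
Igkv6-32 was closest to Igkv6-17, with 84.7% identical bases over 347 aligned bases and a longest shared run of 37 bases. Igkv8-27 was closest to Igkv8-19, with 90.3% identity and a longest run of 32 bases. Both runs are shorter than a read of 100 bases. Ighv14-3 was 96.3% identical to Ighv14-1, with a shared run of 71 bases, so its counts are less certain. Reads that mapped to several places had been dropped, which can lower the counts of segments and constant genes with close copies. Among the constant genes, Ighg2b was 87.8% identical to Ighg2c and Iglc2 96.5% identical to Iglc3, and Iglv1 was 96.9% identical to Iglv2, so these counts are uncertain.

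In total, immunoglobulin transcripts were slightly more abundant on day 1 than in control and far less abundant on day 7. The members summed to 8099 UMIs in control cells, or 1011 UMIs per 1000000 UMIs (CPM, interval 989 to 1033), to 7461 UMIs or 1222 CPM (1194 to 1250) on day 1, and to 251 UMIs or 82.1 CPM (72.2 to 92.9) on day 7. The ratio to control was 1.21 (1.17 to 1.25) on day 1 and 0.0812 (0.0713 to 0.0921), or 12.3-fold lower, on day 7. The difference on day 1 was small beside what the choice of cells did to it, since the ratio ran from 1.04 without the 5% of cells with the most UMIs to 1.69 over barcodes with at least 500 genes. On day 7 it stayed between 0.0646 and 0.114 under the alternatives tried. None of them left out every barcode in which immunoglobulin took at least 10% of the UMIs. Such barcodes, described further on, held 5647 of the 8099 control UMIs, or 69.7%, and none was found on day 7. A lower level in a whole library does not tell fewer antibody-forming cells from less RNA in each.

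Between control and day 1 the class of antibody differed more than the total, whereas between control and day 7 the total differed more. In control, Ighm made up 86.5% of the heavy constant UMIs (85.3 to 87.6%), and on day 1 it made up 30.1% (28.4 to 31.7%), while Igha held 57.9% (56.1 to 59.7%). On day 7 all 117 heavy constant UMIs were Ighm. Ighm had 3057 UMIs or 381 CPM in control, 909 UMIs or 149 CPM on day 1 and 117 UMIs or 38.2 CPM on day 7. It was thus 2.56-fold lower on day 1 and 9.97-fold lower on day 7 than in control. Igha went the other way on day 1, with 258 UMIs or 32.2 CPM in control and 1750 UMIs or 287 CPM on day 1, a ratio of 8.90 (7.80 to 10.2). On day 7 no Igha UMI was found in a cell, which is at least 32.8-fold lower than in control when 3 counts are taken as the floor of a library. The lead of Igha on day 1 rested on few barcodes, since without the 10 barcodes with the most immunoglobulin UMIs Ighm took 57.2% and Igha 35.4%.

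The leading IgG subclass was Ighg3 in control and Ighg2b on day 1. Ighg3 had 204 UMIs in control and 9 on day 1, a 17.3-fold lower level, whereas Ighg2b had 12 UMIs in control and 339 on day 1, a ratio of 37.1 (20.9 to 72.4). Ighg1 and Ighg2c were rare, with 3 and 1 UMIs in control and 11 and 5 UMIs on day 1. No IgG constant UMI was found on day 7, against 220 in control and 364 on day 1, so that their sum was at least 28.0-fold lower than in control. These subclasses rest on few barcodes, as described further on.

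Kappa was the leading light chain in every library, with Iglc2 as the lambda constant gene measured. Igkc, the kappa constant gene, had 2735 UMIs or 341 CPM in control, 2662 UMIs or 436 CPM on day 1 and 68 UMIs or 22.2 CPM on day 7. Iglc2, a lambda constant gene, had 349, 431 and 29 UMIs, or 43.5, 70.6 and 9.48 CPM. Igkc therefore took 88.7% of the light constant UMIs in control, 86.1% (84.8 to 87.3%) on day 1 and 70.1% (60.0 to 79.0%) on day 7. The level on day 7 was 15.4-fold below control for Igkc and 4.59-fold below it for Iglc2. The intervals of their ratios (0.0504 to 0.0828 and 0.144 to 0.318) did not overlap. This contrast rested on the control barcodes rich in immunoglobulin, described further on, in which 2036 of 2063 light constant UMIs were Igkc. In the other control cells Igkc took 699 of 1021 light constant UMIs, or 68.5% (65.5 to 71.3%). That share was near the 70.1% on day 7, where no rich barcode was found. Igj, the chain that joins polymeric IgM and IgA, had 625 UMIs in control, 332 on day 1 and 3 on day 7, with ratios to control of 0.697 (0.608 to 0.797) and 0.0126 (0.00259 to 0.0369). Of the 4 constant genes and chains still found on day 7, Igj had the lowest ratio to control.

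**Figure D1:**
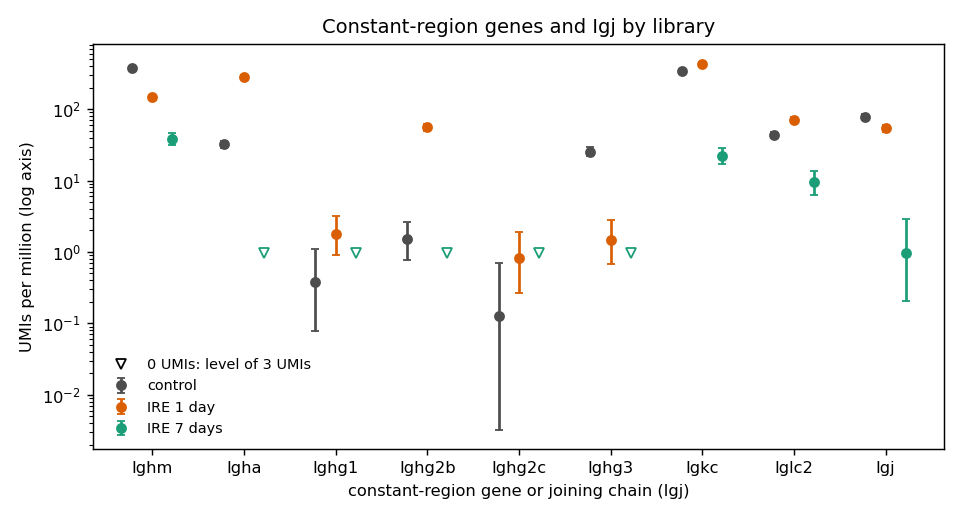
CPM of each heavy constant gene, light constant gene and Igj in the cells of the 3 libraries, on a log axis, with exact Poisson intervals. Igha stands at 32.2 in control and 287 on day 1, and the open triangles mark genes with 0 UMIs on day 7, drawn at the level of 3 UMIs.

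Over single genes, 26 members had at least 20 UMIs in control and day 1 together, and the other 140 were not counted. Of these, 11 were over 2-fold higher on day 1, where 13.6% of all genes with that many UMIs were, and 10 were over 2-fold lower, against 7.14%. Between day 7 and control 15 members could be compared, and 15 were over 2-fold lower, against 26.3% of all genes. The same number, 15 of 15, was lower than on day 1, against 31.8%. No member was over 2-fold higher on day 7 than in control or than on day 1, where 8.79 and 11.3% of all genes were. A segment with few UMIs in 1 library enters this count only through the other, so these counts describe the members and test nothing. Ighmbp2, the helicase gene, had 75, 46 and 9 UMIs.

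Immunoglobulin transcripts sat in very few cells. In control the 10 barcodes with the most immunoglobulin UMIs held 51.4% of all of them and the first alone 553 UMIs or 6.83%. On day 1 the first 10 held 53.3% and the first 771 UMIs or 10.3%. On day 7 the first 10 held 31.9% of only 251 UMIs, and the first had 18 UMIs. Other genes with at least 250 UMIs were spread more evenly, with a median of 4.89, 6.02 and 5.35% in their 10 highest barcodes and a 95th percentile of 9.30, 12.1 and 9.07%, although single genes reached 64.5, 73.5 and 52.7%. The remaining immunoglobulin UMIs were thin, since 857 of the 1225 control barcodes that had any held exactly 1, as did 1253 of 1862 on day 1 and 109 of 143 on day 7.

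**Figure D2:**
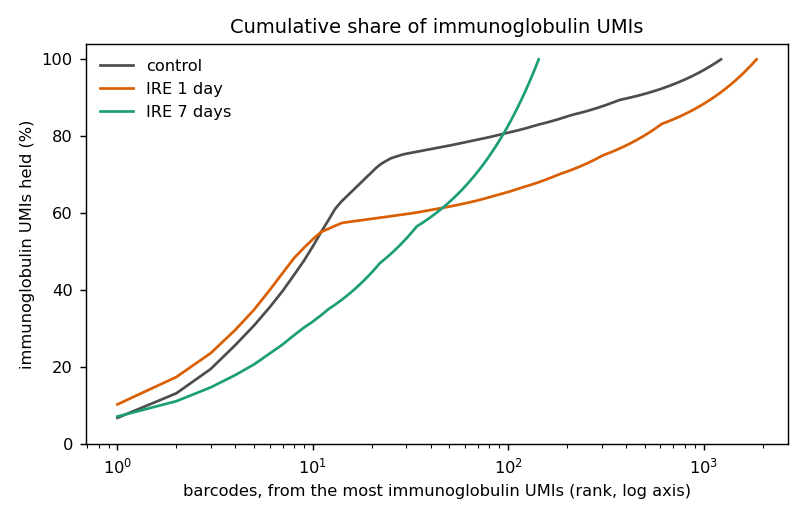
Cumulative share of the immunoglobulin UMIs of each library (vertical axis, percent) over its barcodes ranked from the most such UMIs (horizontal axis, log scale). The curves of control and day 1 pass 50% at 10 and 9 barcodes, and the curve of day 7 at 26.

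Barcodes in which immunoglobulin took at least 10% of the UMIs are called immunoglobulin-rich here, a limit set after the values were seen. There were 21 in control, or 0.202% of cells (0.125 to 0.309%), 13 on day 1 (0.140%, 0.0748 to 0.240%) and 0 of 5624 on day 7, which allows up to 0.0533% when 3 cells are taken as the limit. They held 69.7% of the immunoglobulin UMIs of control and 55.6% of those on day 1. Just inside and just outside the limit lay 11.4 and 9.85% in control and 10.5 and 9.08% on day 1, and the highest barcode on day 7 reached 4.83%. Within the rich barcodes the share ran from 11.4 to 48.7% in control (median 27.1%) and from 10.5 to 50.4% on day 1 (median 34.5%). Their total depth was 356 to 1776 UMIs in control and 353 to 3472 on day 1.

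Each rich barcode was nearly pure for a single heavy class. The leading isotype took 95.8 to 100% of the heavy constant UMIs of a barcode in control and 90 to 100% on day 1. In control 17 of 21 were led by Ighm, 2 by Igha and 2 by Ighg3. On day 1 Igha led 11 of 13, and 1 was led by Ighm and 1 by Ighg2b. All 21 control barcodes were kappa-led, as were 11 on day 1, and the other 2 on day 1 were lambda-led. Igj was found in 20 of 21 and in 13 of 13 of them, which together held 575 of the 625 Igj UMIs in control and 282 of 332 on day 1.

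The barcode with the most immunoglobulin UMIs in control had 553 among 1135 UMIs, with 212 Ighm, 205 Igkc, 66 Igj, 63 Igkv6-32 and 4 Ighv14-3 UMIs. Its only heavy constant gene was Ighm. On day 1 the barcode with the highest share had 448 among 889 UMIs, with 198 Igha, 159 Igkc, 43 Igkv8-27 and 36 Igj UMIs. The single Ighg2b-led barcode on day 1 held 268 of the 339 Ighg2b UMIs of that library and 32 UMIs of Igkv1-117. The first lambda-led barcode on day 1 had 168 Ighm and 164 Iglv1 UMIs, with no UMI of Igkc or Iglc2, and the Iglv1 segment is known to join mainly to Iglc1, which was not analysed here. The second had 84 Igha, 52 Iglc2 and 14 Iglv2 UMIs. The deepest rich barcode, with 3472 UMIs on day 1, carried 54 UMIs of Igkv1-135 and 27 of Igkv15-103, so that more than 1 kappa segment was found under its barcode.

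**Figure D3:**
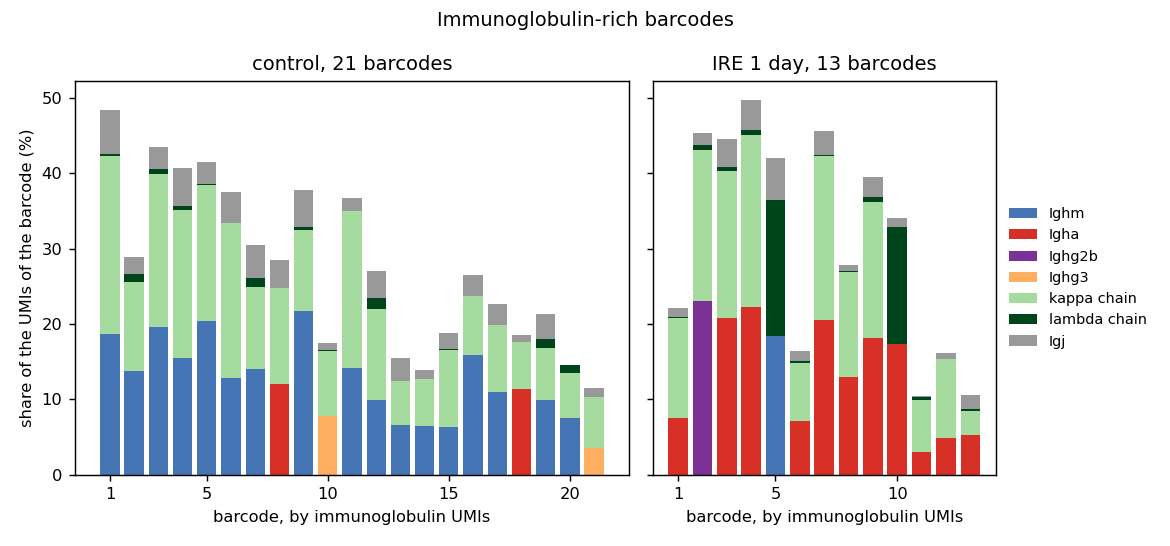
Share of the UMIs of each immunoglobulin-rich barcode (bars, percent) that came from its leading heavy constant gene, from kappa or lambda chains and from Igj, for the 21 control barcodes and the 13 on day 1. Control bars are mostly Ighm with kappa, and bars on day 1 mostly Igha with kappa, with a pair of lambda bars.

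Other plasma cell genes went with the rich barcodes. Mzb1, a chaperone that helps antibody assembly, had 45 of its 98 control UMIs in the 21 rich barcodes and was found in 13 of them, and on day 1 it had 27 of 98 UMIs in 9 of 13. Xbp1, a transcription factor of the secretory programme, was found in 12 of 21 and 9 of 13, and Txndc5, a disulfide isomerase, in 12 of 21 and 10 of 13. Of the 12 plasma cell markers the median rich barcode had 3 in both libraries, and the list made up 10946 CPM of the UMIs other than immunoglobulin in control and 9213 on day 1, against 266 and 234 in cells that were neither rich nor B cell-like nor plasma cell-like. The B cell marker list was also above other cells, at 1713 CPM in control and 1331 on day 1 against 205 and 420, and was found in 12 of 21 and 9 of 13 rich barcodes, with Ly6d at 8 and 1 UMIs, Fcrla at 4 and 2 and Cd79b at 2 and 5. Pax5 and Ebf1 of that list, factors that plasma cells switch off, were at 0 UMIs in the rich barcodes of both libraries, as were Blk, Faim3, Cr2 and Fcer2a. Even among B cell-like barcodes, Pax5 was found in only 24 of 220 in control and 12 of 149 on day 1, and Ebf1 in 29 and 12. At this depth, 0 UMIs in so few rich barcodes therefore say little. Prdm1 and Irf4, which drive plasma cells, had 2 and 1 UMIs in control and 1 and 0 on day 1, and Sdc1 3 and 1, so that these defining markers were near 0 at this depth.

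Variable segments followed the same few barcodes. In control cells 47 heavy and 47 kappa segments had a UMI, against 62 and 55 on day 1 and 15 and 6 on day 7. Of the heavy segments, 38 were found in both control and day 1, which is 80.9% of those in control and 61.3% of those on day 1, and for kappa it was 37 segments, 78.7 and 67.3%. The most abundant segments, however, differed by library. Igkv6-32 had 167 UMIs in control and 8 on day 1, Igkv1-122 had 62 and 1, Igkv3-5 had 52 and 1, and Igkv2-137 had 46 and 2. Their ratios of day 1 to control were 0.0629 (0.0267 to 0.127), 0.0212 (0.000527 to 0.122), 0.0252 (0.000627 to 0.147) and 0.0570 (0.00671 to 0.218). These segments were named through the library in which they were high, so the ratios only describe them. Igkv8-27 had 0 and 87 UMIs, at least 38.0-fold higher on day 1, Igkv1-135 had 1 and 67, a ratio of 87.9 (15.2 to 3523), and Igkv10-96 had 3 and 45, a ratio of 19.7 (6.32 to 99.0). Igkv15-103 and the lambda segments Iglv1 and Iglv2 were found in both, at 19 and 31, 117 and 263, and 15 and 32 UMIs. On day 7 Iglv1 had 7 UMIs, Iglv2 4 and Igkv1-135 1, and the other 7 of these 10 segments had 0.

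Most of these segments were held by single barcodes. Among the 9 segments with at least 20 UMIs in control, the highest barcode held over 50% of the segment's UMIs for 6, and the same was so for 7 of 9 on day 1. Igkv3-10 had 36 of its 38 control UMIs in 1 barcode, and Igkv1-135 had 54 of its 67 UMIs on day 1 in 1 barcode. Iglv1 was the most spread, with 16.2% of its 117 control UMIs in the highest of 41 barcodes, although 164 of its 263 UMIs on day 1 lay in 1 barcode. The segment levels thus rest on few barcodes from a pool of 3 livers, and a segment at 0 in a library may only not have been sampled.

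Several control barcodes shared their segments. Igkv6-32, printed above, was the leading kappa segment of the barcodes ranked 1, 3, 10, 17 and 23 by immunoglobulin UMIs, with 63, 43, 33, 15 and 5 UMIs, and Ighv14-3 was the leading heavy segment of 4 of them, with 4, 1, 11 and 2 UMIs. Barcodes 1 and 3 carried Ighm and barcodes 10, 17 and 23 carried Ighg3, so the same pair of segments was found with IgM and with IgG3. The barcode ranked 17 lay just outside the limit, at 9.85%, and the others were rich. The barcode sequences of these 5 differed from each other at 7 to 10 bases. Igkv1-122 with Ighv1-52 was found in barcodes 4 and 12, Igkv3-5 with Ighv12-3 in 6 and 15, and Igkv8-24 with Ighv1-9 in 7 and 16, all with Ighm. On day 1 Igkv8-27 led the Igha barcodes ranked 4 and 6, with 43 and 39 UMIs, but beside other heavy segments, 6 UMIs of Ighv1-9 in one and 1 UMI each of Ighv1-50 and Ighv1-59 in the other. Igkv10-94 led the Igha barcodes ranked 11 and 12 on day 1, with 8 and 9 UMIs and no heavy segment. The Igha barcodes ranked 1 and 13 shared both Igkv1-135, at 54 and 4 UMIs, and Ighv5-16, at 2 and 1. Whether barcodes with the same segments came from 1 clone, 1 mouse or a cell that met more than 1 bead was not tested.

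Cells were assigned to classes by counting markers, with no member among them, a class needing at least 2 detected markers and more than any other class. The ending -like marks a class that rests on markers alone, and doublets were not called. The gate gave 29 plasma cell-like barcodes in control, 18 on day 1 and 9 on day 7, and 220, 149 and 14 B cell-like barcodes. Plasma cell-like barcodes were 0.279% of control cells and held 68.7% of the immunoglobulin UMIs, at 178973 CPM (174302 to 183739). On day 1 they were 0.195% of cells and held 51.8%, at 217413 CPM (210611 to 224380). On day 7 the 9 barcodes that passed this gate had 1 immunoglobulin UMI between them and none of Mzb1, Derl3, Tnfrsf17, Prdm1 or Irf4, and they passed mainly through Xbp1, Creld2, Tnfrsf13b and Txndc5. The data thus go against the plasma cell name in that library, and the 9 barcodes are named here only by the gate. Of the immunoglobulin-rich barcodes 15 of 21 in control and 10 of 13 on day 1 passed the gate, and the others had fewer than 2 markers, were tied with another class or fell in another class.

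B cell-like barcodes were 2.12% of cells in control (1.85 to 2.41%), 1.61% on day 1 (1.36 to 1.89%) and 0.249% on day 7 (0.136 to 0.417%). Within these barcodes the immunoglobulin level was higher on day 1 and day 7 than in control, at 4157 CPM (3827 to 4508) in control, 6566 (6001 to 7171) on day 1 and 10816 (8365 to 13761) on day 7. Those 14 barcodes on day 7 held 66 immunoglobulin UMIs, or 26.3% of the library's, with 19 Ighm, 23 Igkc and 15 Iglc2 UMIs. The median depth of B cell-like barcodes was 539.5, 427 and 379 UMIs per barcode. The B cell markers of the gate stood in the same order in them, at 6361, 7849 and 12094 CPM of the UMIs other than immunoglobulin. The part of the gate and of depth in the immunoglobulin level was not tested. An immunoglobulin UMI was found in 78.2% of control B cell-like barcodes, 89.9% on day 1 and 100% on day 7. In macrophage-like barcodes, which should lack these transcripts and had median depths of 772.5, 556 and 544.5 UMIs, it was found in 9.58, 17.9 and 1.60%. After each cell was thinned to 300 UMIs the shares were 62.6, 82.1 and 92.9% in B cell-like and 3.49, 10.3 and 0.901% in macrophage-like barcodes.

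The isotypes of B cell-like barcodes were nearly all IgM in each library. Ighm took 174 of 177 heavy constant UMIs in control, or 98.3% (95.1 to 99.6%), 120 of 133 on day 1, or 90.2% (83.9 to 94.7%), and 19 of 19 on day 7. The 11 Igha UMIs of B cell-like barcodes on day 1, 8.27% of the heavy constant UMIs, compare with 37.9% in macrophage- and endothelial-like barcodes of that library. Igj was at 1, 0 and 0 UMIs in B cell-like barcodes, against 550 and 254 in the plasma cell-like barcodes of control and day 1. Kappa took 61.1% of their light constant UMIs in control, 76.0% on day 1 and 60.5% on day 7, below the 98.7 and 95.7% in the rich barcodes of control and day 1. These shares count Igkc and Iglc2 alone. The rich barcode on day 1 with 164 Iglv1 UMIs had neither gene and does not enter the 95.7%, so the gap on day 1 is overstated. Of the B cell-like barcodes with at least 2 light chain UMIs, 40 of 90 in control, 37 of 86 on day 1 and 6 of 8 on day 7 held both kappa and lambda, although a B cell normally keeps only 1 light chain. The part of free RNA and of doublets in this was not tested.

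**Figure D4:**
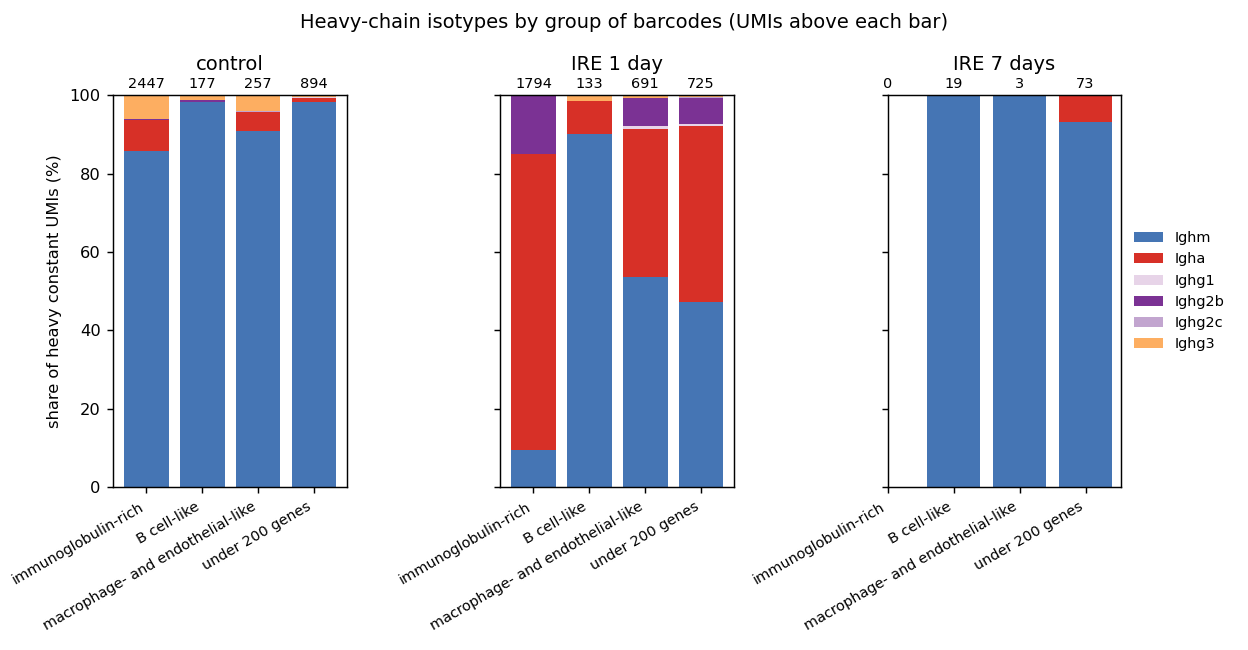
Heavy constant UMIs by isotype (bars, percent, with the number of UMIs above each bar) in immunoglobulin-rich, B cell-like, and macrophage- and endothelial-like barcodes and in barcodes under 200 genes, for each library. On day 1 Igha holds 75.4% of the rich barcodes, 8.27% of the B cell-like ones and 37.9% of the macrophage- and endothelial-like ones, whereas control bars are mostly Ighm.

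Classes that should not make antibody also carried these transcripts at a low level, most of it on day 1. Macrophage-like barcodes had 130.5 CPM of immunoglobulin in control (118 to 144), 353 on day 1 (330 to 376) and 22.1 on day 7 (6.01 to 56.5). Endothelial-like barcodes had 149 in control, 465 on day 1 and 0 UMIs on day 7, which allows up to 107 CPM. T cell-like barcodes followed the same order at 144, 455 and 87.3, the last from 3 UMIs (18.0 to 255). Neutrophil-like barcodes had 332 in control, 267 on day 1, from 4 UMIs (72.8 to 684), and 76.2 on day 7. On day 7 they held 59 UMIs or 23.5% of the library's immunoglobulin, with 18 in the highest barcode. In macrophage- and endothelial-like barcodes of the control library Ighm took 91.1% of the heavy constant UMIs and Igha 4.67%, and on day 1 Ighm took 53.5% and Igha 37.9%. These lay between the shares of B cell-like and rich barcodes of the same library on day 1, where Igha was 8.27 and 75.4%, and the part of free RNA in them was not tested. Macrophage-like barcodes held 12.3% of all immunoglobulin UMIs on day 1 and endothelial-like barcodes 11.4%, against 4.63 and 1.80% in control, and 1 rich barcode with 58 of these UMIs lay in the endothelial-like class on day 1.

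**Figure D5:**
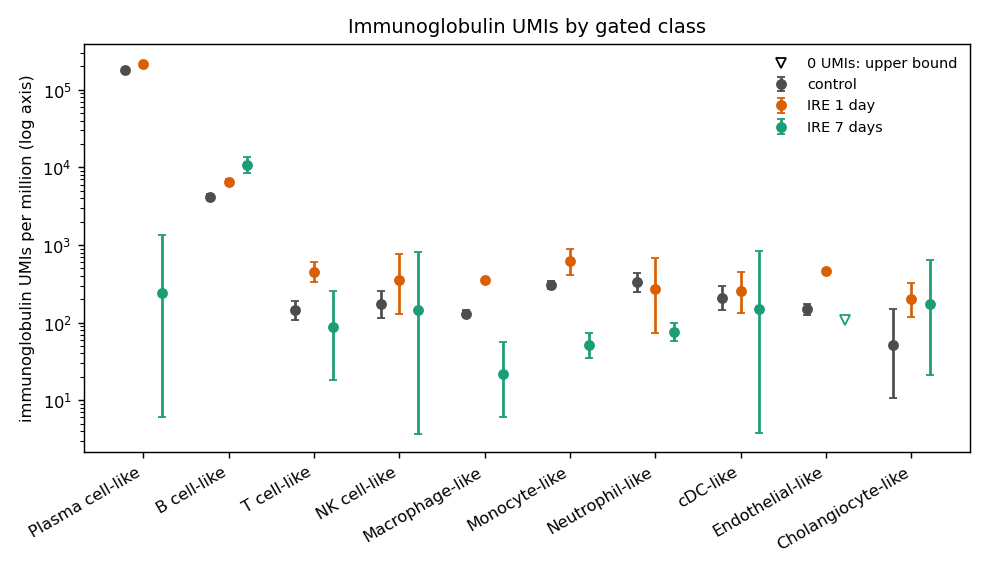
Immunoglobulin level in CPM in 10 gated classes of the 3 libraries on a log axis, with exact Poisson intervals, an open triangle standing for the upper bound at 0 UMIs. Plasma cell-like barcodes of control and day 1 stand at 178973 and 217413, those of day 7 at 242, and B cell-like barcodes at 4157 to 10816.

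The B cell genes outside the immunoglobulin loci were compared in the same cells. Of 11 genes of the B cell receptor complex and its signalling, 10 had at least 20 UMIs, and 1 was over 2-fold higher on day 1 and 6 over 2-fold lower on day 7 than in control, shares to be read against 13.6 and 26.3% of all genes. Cd79a, which carries the signal of surface antibody, had 60, 147 and 19 UMIs, of which 34, 42 and 7 lay in B cell-like barcodes. Its ratio to control over all cells was 3.21 (2.37 to 4.42) on day 1 and 0.830 (0.468 to 1.41) on day 7. Its partner Cd79b had 383, 463 and 31 UMIs, with ratios of 1.59 and 0.212. Of 6 B cell transcription factors 0 were over 2-fold higher and 1 over 2-fold lower on day 1, against 13.6 and 7.14% of all genes. On day 7, 4 of them were over 2-fold lower than in control, against 26.3%. Pax5, the factor that holds B cell identity, had 75, 62 and 2 UMIs, and Pou2af1, a coactivator at immunoglobulin promoters, had 80, 38 and 0.

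Of 9 measured genes of antibody folding and secretion, 0 were over 2-fold higher or lower on day 1, against 13.6 and 7.14% of all genes, and 2 were over 2-fold lower on day 7, against 26.3%. Mzb1 had 98, 98 and 0 UMIs, at least 12.5-fold lower on day 7, whereas the chaperone Hspa5 had 10167, 4468 and 5229 UMIs and Hsp90b1, another chaperone of the endoplasmic reticulum, 16278, 8708 and 4875. Xbp1 was 2.81-fold control (2.53 to 3.13) on day 7, with 723 UMIs, of which 7 lay in barcodes of the plasma cell gate. Of the surrogate light chain genes only Vpreb3 had enough UMIs, at 39, 44 and 5, and 14, 14 and 4 of these were in B cell-like barcodes. The next counts of genes past 2-fold are to be read against 13.6% of all genes higher and 7.14% lower on day 1, and 8.79% higher and 26.3% lower on day 7. Of 5 plasma cell factors and receptors 2 were lower on day 1, and 1 was higher and 2 were lower on day 7. Of 2 genes of recombination and switching, 1 was higher on day 1, and the 1 measured on day 7 was lower. Of 7 genes of B cell survival and homing 1 was lower on day 1, and 1 was higher and 2 were lower on day 7, which in so few genes is near the shares of all genes.

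Among the 9 measured genes for transport and receptors of antibody, 5 were over 2-fold higher on day 1, against 13.6% of all genes, and 4 were over 2-fold higher and 4 lower on day 7 than in control, against 8.79 and 26.3%. Pigr, which carries polymeric IgA and IgM across epithelia, had 336 UMIs or 41.9 CPM in control, 2166 or 355 on day 1 and 13 or 4.25 on day 7, a ratio of 8.46 (7.54 to 9.52) on day 1. On day 1 it was highest in hepatocyte-like barcodes, at 1197 CPM (930 to 1518), yet macrophage-like barcodes also had 389. Hepatocyte markers were 0.193% of the UMIs in control and 3.37% on day 1, and their part in it was not tested. Fcgrt, the neonatal receptor that protects IgG from breakdown, had 1218, 1908 and 109 UMIs and was highest in endothelial-like barcodes in each library, at 382, 425 and 753 CPM. Faim3, the older symbol of the IgM receptor Fcmr, had 111, 179 and 7 UMIs and was highest in B cell-like barcodes in control and on day 1, at 404 and 609 CPM. Faim3 is itself a marker of the B cell-like gate, so this place was in part set by the gate. Fcer2a, a receptor for IgE on B cells, had 50, 110 and 6 UMIs. Several genes of antibody receptors were instead higher on day 7. Fcgr1, which binds IgG with high affinity, had a ratio to control of 3.71 (3.43 to 4.03), Fcgr3 of 3.39 (3.20 to 3.61), their signalling chain Fcer1g of 3.24 (3.14 to 3.34) and the inhibitory Fcgr2b of 2.54 (2.37 to 2.73), whereas Fcgr4, another IgG receptor, was at 1.37 (1.245 to 1.501). On day 1 Fcgr1, Fcgr3, Fcgr4 and Fcer1g were below control, at 0.648, 0.624, 0.579 and 0.816, and Fcgr2b was above it, at 2.00 (1.88 to 2.13). Neutrophil-like barcodes numbered 226 in control and 1518 on day 7, wound myeloid-like ones 34 and 1367, monocyte-like ones 1466 and 1043 and macrophage-like ones 2932 and 250. Fcgr2b is itself a marker of the endothelial-like gate. Endothelial-like barcodes were 14.3% of cells in control, 33.1% on day 1 and 1.16% on day 7. On day 7 Fcgr1 stood at 755 CPM in monocyte-like and 603 in wound myeloid-like barcodes, and the part of this makeup in the receptor levels was not tested.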

How the data were processed

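Drop-seq libraries were sequenced in paired-end reads of 100 bases. The submitters' processing notes name STAR 2.5.2a and the build hg19, although the symbols are those of mouse genes, so the build is taken as unknown and no coordinates are given. Per the file headers, the authors counted UMIs per gene and barcode on the sense strand, with a mapping quality of at least 10 and UMIs within 1 base merged. They deposited these counts without normalization, and the tables hold barcodes with as few as 11 genes. Barcodes with at least 200 genes were kept. Counts were summed by library and gated class with Python 3.11.15, NumPy 2.4.6, SciPy 1.17.1 and pandas 2.3.3. Genes at 0 UMIs were set to a floor of 3 counts for bounds. A hepatocyte-like barcode had under 2 markers of any other class and over 5% hepatocyte marker UMIs.

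Segments were aligned with Biopython 1.88. Named genes were all constant genes and Igj with a UMI, the 10 variable segments with the most UMIs, and listed pathway genes with at least 20 UMIs in B cell-like and plasma cell-like barcodes or, for transport and receptors, in all cells. Segments and markers of single rich barcodes were named after their values were seen. Members and lists were chosen with earlier results of these data known. On counts simulated for day 1 against control, over 12826 genes with 200 changed 4-fold, the 2-fold call found 100 of 100 higher and 94 of 95 lower genes that kept 20 UMIs. It called 0.808% of unchanged genes. The simulated totals held no clumping of UMIs in single barcodes, so these rates need not hold for members held by few barcodes. Intervals cover counting error only.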

Additional observations from a re-analysis of the deposited data

Results flagged for a closer look

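Barcodes with fewer than 200 genes were left out of the main comparisons between libraries. Only the constant genes and Igj were screened there. Of these, Igha and Ighg2b stood above the control library, with intervals that did not overlap. Variable segments were not screened, yet Iglv1 was also above control on day 1, at 22.4 CPM (16.9 to 29.2) against 9.91 (6.05 to 15.3). Igkv10-96 had 10 UMIs on day 1 and 0 in control. On day 1 Igha had 327 UMIs or 133 CPM (119 to 148) in these barcodes, against 10 UMIs or 4.95 CPM (2.38 to 9.11) in control. Ighg2b had 48 UMIs or 19.5 CPM (14.4 to 25.9) on day 1 and 0 UMIs in control. Both genes were also higher in the cells on day 1. Over all members these barcodes held 1107 CPM in control, 789 on day 1 and 139 on day 7. On day 7 they had 5 Igha UMIs, whereas the cells of that library had 0.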

How the results depend on the processing

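With every deposited barcode the level was 1097 CPM on day 1 and 101.1 on day 7, with ratios to control of 1.07 and 0.0982. Ighm took 88.9% in control and 33.4% on day 1, Igha 55.4% and Igkc 84.8% on day 1. Plasma cell-like barcodes held 64.7 and 41.1% in control and on day 1, B cell-like ones 17.3% on day 7, and the first 10 barcodes 40.3, 42.9 and 20.3%. With at least 500 genes the levels were 525, 886 and 33.9, with ratios of 1.69 and 0.0646. Ighm took 77.7 and 21.8%, Igha 74.6%, Igkc 86.5 and 90.4%, plasma cell-like barcodes 67.6 and 64.2%, B cell-like ones 0% on day 7, and the first 10 barcodes 70.9, 67.6 and 62.1%. Without the 10 barcodes with the most immunoglobulin UMIs the levels were 492, 572 and 56.0, with ratios of 1.16 and 0.114. On day 1 Ighm then exceeded Igha, at 57.2 against 35.4%. In control Ighm took 88.4%, Igkc took 79.0 and 77.6%, plasma cell-like barcodes 35.6 and 6.37%, and B cell-like ones 8.19%. Without the 5% of cells with the most UMIs the control level was 1157 and the ratio 1.04 on day 1. On day 1 Ighm, Igha and Igkc took 35.03, 50.4 and 83.3%, plasma cell-like barcodes 69.9 and 43.7%, and the first 10 barcodes 53.8 and 50.0%. Without mitochondrial UMIs the levels were 1271 in control and 1561 on day 1, and the ratio 0.0673 on day 7. A gate of 3 markers left 64.3 and 49.3% in plasma cell-like barcodes. Without barcodes shared between libraries, a setting added after seeing the data, the level on day 1 was 1270.2. Immunoglobulin-rich barcodes numbered 26, 15 and 0 at a limit of 5% and 14, 9 and 0 at 20%. The cause of these changes was not tested. No paired analysis was possible because each group is 1 library. The 251 UMIs on day 7 limit what can be said of single members there.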
